A study of Mus musculus with 4 samples.

Results

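*Foxc1*, *Foxc2*, *Foxl1* and *Foxf2* are 4 of the 33924 gene symbols in the mouse annotation used here, and all of them encode forkhead transcription factors of the lateral and paraxial mesoderm. The regions described were selected on the positions and the gene names of peaks in the deposited lists of Gata4 binding: peaks that the authors tied to a member within 5 kb, peaks within 250 kb of a member on mm9, and every peak of chromosome 8 between positions 123400000 and 124000000. In that interval *Foxc2* and *Foxl1* lie beside *Foxf1*, which the annotation calls *Foxf1a*. These limits took in 47 of the 20410 peaks of the list from wild-type (WT) cells and 53 of the 22733 peaks of the list from *Dnmt3a*-/-*Dnmt3b*-/- (DKO) cells. Because the presence of a peak chose the regions, the number of peaks in them is a description and was not tested.

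Forkhead factors bind DNA through a winged-helix domain. *Foxc1* and *Foxc2* act redundantly in the presomitic mesoderm, the somites and the developing blood vessels. *Foxf1* and *Foxf2* act in the splanchnic part of the lateral mesoderm, downstream of Hedgehog signals from the gut endoderm, and *Foxl1* acts in the mesenchyme beneath the gut epithelium. Gata4 is a zinc finger factor of heart and endoderm that recognises a GATA core in DNA.

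Gata4 was measured by chromatin immunoprecipitation and sequencing (ChIP-seq), in which DNA bound by a protein is pulled down with antibodies and read. There were 4 libraries, 1 for each condition: WT Flk1(+) and DKO Flk1(+) mesoderm cells at day 4.5 of differentiation on OP9 stroma after 3 hr of 100 nM dexamethasone (Dex), and undifferentiated WT ES and DKO ES cells without Dex. All libraries came from the J1 line of the 129 background and carried Gata4GR, a fusion of Gata4 to the hormone-binding part of the glucocorticoid receptor that is driven by the CAG promoter and switched on by Dex. The labels give clone J1G4.2 for WT Flk1(+) and clone 16G4.3 for DKO Flk1(+), so each Flk1(+) genotype is 1 clone, and the ES labels name none. Flk1 is a receptor of early mesoderm by which the cells were sorted on magnetic beads, and DKO cells lack the enzymes that set new DNA methylation. Binding was captured with a mixture of 3 antibodies to Gata4. The lists hold binding and no RNA, so the activity of the 4 genes and the cell type of the sorted cells could not be checked here.

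A peak's height is the value of the authors' smoothed read profile in the Flk1(+) library, its ES height is the value of the matching ES library at the same place, and its enrichment is the first divided by the second, with an ES height below 1 taken as 1. The rank orders the peaks of a list by the q-value of the peak caller, with 1 the best. No peak of either list had a height under 5.00 or an enrichment under 3.00. With 1 library for each condition there was no spread between replicates, so no difference between WT and DKO was tested. Shares are given with exact (Clopper-Pearson) 95% intervals, which cover counting error only. Shares and intervals count each peak separately, although some peaks of a list lie within 500 bp of each other and can mark the same site.

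Gata4 peaks lay in or near *Foxc1* and *Foxc2* in both lists, near *Foxl1* in the DKO list alone, and near *Foxf2* in neither list. Within 5 kb of a gene body the WT list had 2 peaks for *Foxc1*, 1 for *Foxc2* and 0 for *Foxl1* and *Foxf2*. The DKO list had 2 each for *Foxc1*, *Foxc2* and *Foxl1* and 0 for *Foxf2*. Of all 22216 protein-coding genes, 39.4% had a WT peak and 49.1% a DKO peak within the same distance, and since the rule used these peaks nothing is read from the members' counts. The tallest of the 9 peaks within 5 kb was a WT peak in the 3′ UTR of *Foxc1* with a height of 10.8 and 15 CpGs, and all taller peaks lay farther from every member. The other 8 had heights of 7.21 or less and 29 or more CpGs in the sequence around them.

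*Foxc2* lies on the plus strand of chromosome 8 from 123640071 to 123642792. Its WT peak stood at 123641068 in the coding exon, with a height of 6.08, an ES height of 1.69, an enrichment of 3.59 and rank 10415. The DKO list had peaks in the same exon at 123640519, with a height of 5.05, an ES height of 1.21 and rank 17300, and at 123641293, with a height of 5.94, an ES height of 1.90 and rank 22028. The DKO peak at 123641293 lay 225 bp from the WT peak and counted as shared. The DKO peak at 123640519 lay 549 bp from it, just past the 500 bp that was set for a shared peak. All 3 had low heights and enrichments, and none of their windows, the sequence deposited from 250 bp before to 250 bp after each position, held AGATAA or TGATAA, the GATA motif searched on both strands. The windows held 52 CpGs at the WT peak and 63 and 64 at the DKO peaks, beside medians of 8 over the WT list and 21 over the DKO list. The coding bases around these positions are shown on the plus strand of mm9 because they carry CpGs, in capitals, and no GATA motif.
WT peak in Foxc2, chr8:123641018-123641118: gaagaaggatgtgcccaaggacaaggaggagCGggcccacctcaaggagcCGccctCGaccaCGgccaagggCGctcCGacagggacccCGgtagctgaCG
First DKO peak in Foxc2, from the first coding base, chr8:123640515-123640569: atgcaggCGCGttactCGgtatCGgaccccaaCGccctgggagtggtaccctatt
Second DKO peak in Foxc2, chr8:123641243-123641343: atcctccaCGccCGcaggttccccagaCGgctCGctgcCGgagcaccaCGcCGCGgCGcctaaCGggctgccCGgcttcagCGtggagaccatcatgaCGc

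*Foxl1* lies on the plus strand from 123651840 to 123652929, 9047 bp past the end of *Foxc2*, and is typed as a pseudogene in the annotation although it encodes a forkhead protein. The DKO list had a peak upstream of it at 123649378, 2462 bp from the gene, with a height of 5.75, an ES height of 0.769, an enrichment of 5.75 and rank 10742. A second DKO peak stood at 123649635, 2205 bp from the gene, with a height of 6.51, an ES height of 1.74, an enrichment of 3.75 and rank 19293. The WT list had no peak there, and from the *Foxc2* peak to the next WT peak at 123694194 it was empty for 53126 bp. A place without a peak in a list has no value in it, so the height of the WT profile at the *Foxl1* sites is not known here. The 2 windows held 29 and 30 CpGs and no GATA motif, and their central bases are shown with CpGs in capitals.
First DKO peak upstream of Foxl1, chr8:123649328-123649428: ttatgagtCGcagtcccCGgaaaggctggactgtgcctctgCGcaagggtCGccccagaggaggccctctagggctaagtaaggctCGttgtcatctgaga
Second DKO peak upstream of Foxl1, chr8:123649585-123649685: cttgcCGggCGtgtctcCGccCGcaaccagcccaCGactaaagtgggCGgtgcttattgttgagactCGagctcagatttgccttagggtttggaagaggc

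*Foxc1* lies on the plus strand of chromosome 13 from 31898515 to 31902504. In its coding exon the WT list had a peak at 31899464 with a height of 5.31, an ES height of 0.563 and rank 15050. The DKO list had a peak 75 bp away at 31899389, with a height of 7.21, an ES height of 2.35 and rank 21097. These windows held 46 and 47 CpGs and the same GATA motif, which lay 128 bp from the WT position and 53 bp from the DKO position. A second DKO peak in the exon, at 31900336, had a height of 7.01, an ES height of 1.83, rank 18537, 55 CpGs and no GATA motif. The tallest peak at any member within 5 kb was in the WT list only, in the 3′ UTR of *Foxc1* at 31902438. It had a height of 10.8, an ES height of 1.34, an enrichment of 8.06 and rank 2195, with 15 CpGs and 2 GATA motifs in its window. The nearest DKO peak lay 2102 bp away. The coding stretch with the motif of the shared peak in capitals, the second DKO site with CpGs in capitals, and 30 bases around each GATA motif of the 3′ UTR peak are shown on the plus strand. TTATCT and TTATCA are AGATAA and TGATAA read on the other strand.
Shared peak in Foxc1, chr13:31899323-31899514: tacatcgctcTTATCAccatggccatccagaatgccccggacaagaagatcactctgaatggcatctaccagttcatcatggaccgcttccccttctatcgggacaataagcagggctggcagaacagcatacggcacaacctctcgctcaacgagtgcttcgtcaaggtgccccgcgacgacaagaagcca
Second DKO peak in Foxc1, chr13:31900286-31900386: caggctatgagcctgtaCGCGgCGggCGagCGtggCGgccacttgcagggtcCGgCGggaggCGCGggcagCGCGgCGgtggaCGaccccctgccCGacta
First motif of the WT peak in the 3′ UTR of Foxc1, chr13:31902282-31902311: gtaataaattcaTTATCTtagggtgatctg
Second motif of the WT peak in the 3′ UTR of Foxc1, chr13:31902367-31902396: agtttgttttcgAGATAAagcaggttccta

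*Foxf2* lies on the plus strand of chromosome 13 from 31717685 to 31723272, 175242 bp before *Foxc1*. The WT peak nearest to it stood at 31711619, 6066 bp upstream, and was weak, with a height of 7.98, an ES height of 2.64, an enrichment of 3.02 and rank 19486. The nearest DKO peak lay 67845 bp away at 31649840, within 5 kb of *Foxq1*, another forkhead gene, with a height of 6.52 and rank 20339. A window of the same length around the *Foxf2* start held 60 CpGs, beside 46 at the start of *Foxc1*, 34 at *Foxc2* and 30 at *Foxl1*. Within 250 kb of the *Foxf2* gene body the WT list had 8 peaks and the DKO list 9, most of them the peaks near *Foxc1*.

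The chromosome 8 interval was dense in Gata4 peaks in both lists. It held 32 WT and 41 DKO peaks, where the median over 4388 stretches of 600 kb across the genome was 3 in each list. Of these stretches 99.9% had fewer WT peaks and 99.6% fewer DKO peaks than the interval. The presence of peaks chose the interval, so its place among the stretches is a description and was not tested. Chromosome 8 as a whole stood apart in the DKO list: it had 2108 peaks or 16.0 per Mb, where the other autosomes had 5.54 to 19.0 per Mb and 1 of them more than chromosome 8. Its share of DKO peaks with a WT peak, 34.6%, was below those of the other autosomes, which ran from 40.5% to 53.0%. In the WT list chromosome 8 had 1365 peaks or 10.4 per Mb, again with 1 autosome above it, and the highest median ES height of the 19 autosomes, 1.98 beside 1.60 to 1.78 for the others. On chromosome 8 itself, 1 of 219 stretches of 600 kb had at least as many WT peaks as the *Foxc2* and *Foxl1* interval, and 7 had at least as many DKO peaks. The part of these features of the chromosome in the values below was not tested.

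**Figure D1:**
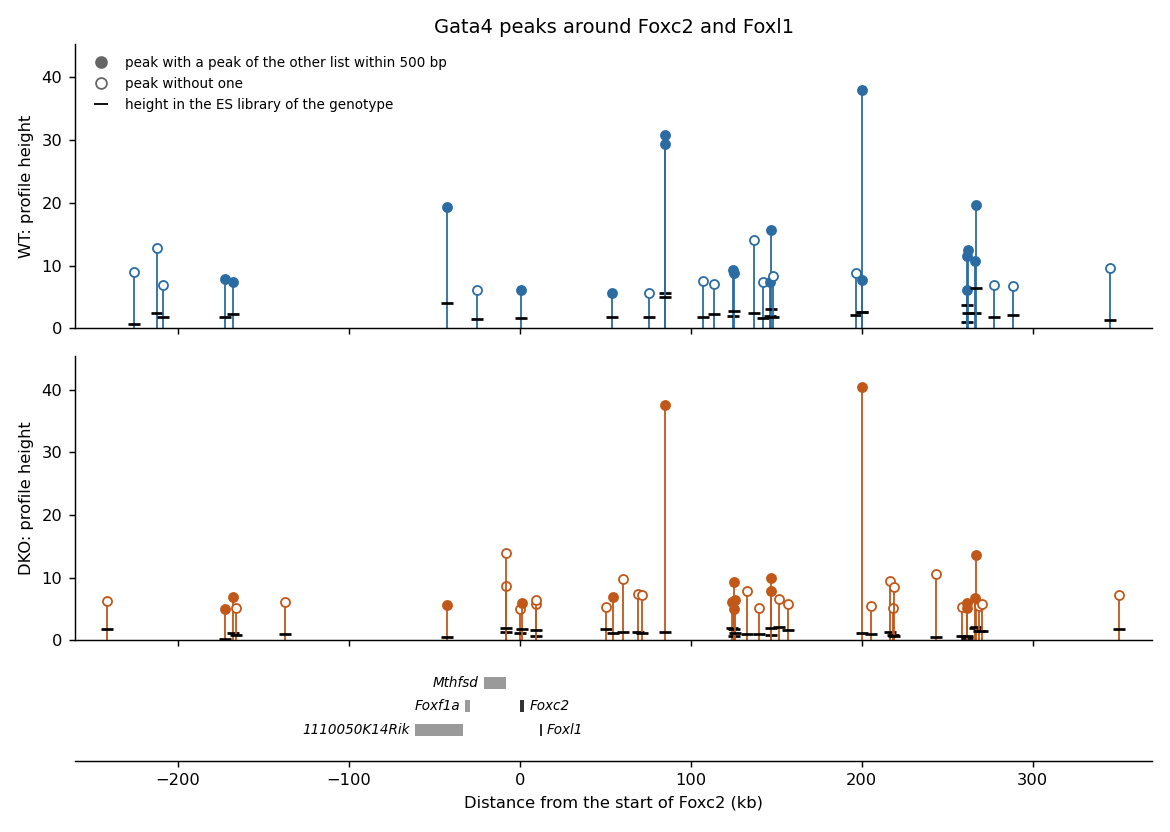
Profile heights of the 32 WT peaks (upper panel) and the 42 DKO peaks (middle panel) against the distance in kb from the start of Foxc2, with genes as bars below, members in black. Stems rise to circles at the Flk1(+) height, filled where the other list has a peak within 500 bp, and black dashes are ES heights. The tallest peaks, with heights from 29.5 to 40.5, stand to the right of both genes.

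Most peaks of the interval, and all with heights of 29.5 or more, lay past the 3′ end of *Foxl1*. The interval reaches farther past *Foxl1* than before *Foxc2*, and a WT peak of height 30.1 stood just outside its left limit. Of the 32 WT peaks, 24 were more than 5 kb past *Foxl1* and 7 more than 5 kb before *Foxc2*. Adding 1 DKO peak at 123398715, outside the interval but within 250 kb of *Foxc2*, the DKO list had 42 peaks around the chromosome 8 members, with 30 past *Foxl1* and 8 before *Foxc2*. Within 250 kb of the gene body *Foxc2* had 24 WT and 34 DKO peaks and *Foxl1* had 27 and 36. Counted from the gene start, *Foxc2* had more WT peaks than 98.9% and more DKO peaks than 97.6% of protein-coding genes. For *Foxl1* these shares were 99.2% and 98.1%, for *Foxc1* they were 90.0% and 65.8%, and for *Foxf2* they were 65.7% and 57.4%. The members were chosen with earlier results of these data known, so these shares describe them and were not tested.

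The best-ranked peak of the interval lay far past *Foxl1* and had rank 3 in the whole DKO list. At 123840048, 187119 bp past the gene, the DKO height was 40.5, the ES height 1.25 and the enrichment 32.4, and 36 DKO peaks were taller. The WT peak 34 bp away, at 123840082, had a height of 38.0, an ES height of 2.52, an enrichment of 15.1 and rank 209, and 230 WT peaks were taller. Its window held 19 CpGs and 3 GATA motifs, all of which lie in the stretch shown here on the plus strand, with the motifs in capitals.
Far site past Foxl1, chr8:123839882-123840172: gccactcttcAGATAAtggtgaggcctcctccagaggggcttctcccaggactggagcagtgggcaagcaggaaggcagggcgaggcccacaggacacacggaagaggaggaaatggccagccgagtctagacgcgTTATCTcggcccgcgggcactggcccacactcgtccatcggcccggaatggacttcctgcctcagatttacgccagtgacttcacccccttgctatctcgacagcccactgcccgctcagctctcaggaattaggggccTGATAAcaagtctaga

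The interval's next peak by rank in the DKO list stood 72012 bp past *Foxl1* at 123724941, at the same base in both lists. In the DKO list it ranked 4, with a height of 37.6, an ES height of 1.40 and an enrichment of 26.9. In the WT list its height was 30.8, but the ES height was 5.67, the enrichment 5.44 and the rank 1829. The WT list had a further peak 232 bp away at 123725173, with a height of 29.5, an ES height of 4.93 and rank 1636. The height was thus of the same order in both Flk1(+) libraries, while the WT ES height was above the DKO ES height. The window held 2 CpGs, 2 GATA motifs that lay 124 bp or more from the position, and a run of 20 AC repeats, which is shown because it sits at the peak position. Runs of at least 10 AC or GT repeats were in 4 of 47 WT windows (8.51%) and 9 of 53 DKO windows (17.0%) of the Fox regions, beside 5.07% and 5.11% of the whole lists. Whether reads in such repeats raised or lowered these heights was not tested.
Near site past Foxl1, chr8:123724891-123724991: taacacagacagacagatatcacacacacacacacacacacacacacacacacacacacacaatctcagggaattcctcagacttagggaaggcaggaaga

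The other peaks among the 5 best-ranked of each list on chromosome 8 were lower and were not shared. In the WT list these were the peaks at 123985279, with a height of 9.68 and rank 2984, and at 123414349, with a height of 8.89 and rank 3759. In the DKO list the first was the peak at 123883781 (height 10.6, rank 1176), whose window held a run of 24 AC repeats and no GATA motif. The others were the peaks at 123700369 (height 9.77, rank 1550) and at 123632334 (height 13.9, ES height 1.94, rank 1636). The last of these stood 42 bp upstream of *Mthfsd*, a gene between *Foxf1a* and *Foxc2* that is read away from *Foxc2* on the minus strand, and 7737 bp before *Foxc2*. A further DKO peak lay in an intron of *Mthfsd* at 123631862 (height 8.72, rank 2310), and the WT peak nearest to the site upstream of *Mthfsd* was 8734 bp away. The window at 123632334 held 47 CpGs and 1 GATA motif, in capitals in the stretch shown, which lay 200 bp from the position.
DKO peak at the start of Mthfsd, chr8:123632293-123632546: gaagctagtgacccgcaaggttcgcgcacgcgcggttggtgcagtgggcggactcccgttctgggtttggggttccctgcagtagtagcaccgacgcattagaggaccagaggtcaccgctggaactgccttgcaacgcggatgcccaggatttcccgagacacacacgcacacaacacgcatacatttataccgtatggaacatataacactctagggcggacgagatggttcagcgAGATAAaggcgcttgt

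*Foxf1a*, the lateral mesoderm gene that lies 29219 bp before *Foxc2*, had 1 WT peak within 5 kb, at 123614998 with a height of 6.04 and rank 10609, and no DKO peak. The long noncoding RNA gene that is read in the opposite direction from *Foxf1a*, 1110050K14Rik in the annotation and *Fendrr* in RefSeq, had a shared peak in an exon. This pair was named after its values were seen. The WT peak at 123597627 had a height of 19.4, an ES height of 3.99 and an enrichment of 4.87. The DKO peak at 123597650 had a height of 5.60, an ES height of 0.525 and an enrichment of 5.60. The DKO to WT ratio of heights, 0.289, was the lowest of the 14 pairs of shared peaks around the chromosome 8 members. The enrichment was thus not lower in DKO.

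Around *Foxc1* the tall peaks were upstream of the gene and in *Gmds*, the neighbouring gene for GDP-mannose dehydratase, and they were taller in the WT list. Upstream of *Foxc1* the WT list had a peak at 31885524 with a height of 22.0, an ES height of 0.694, an enrichment of 22.0 and rank 251. The DKO peak 2 bp away had a height of 8.99, an ES height of 0.514 and rank 2072. These are the best-ranked peaks of either list around *Foxc1* and *Foxf2*. The WT list had another peak beside it at 31885343, with a height of 14.1 and rank 1071. At 31889857, 8658 bp before *Foxc1*, the WT height was 22.9 with rank 731, and 12 bp away the DKO height was 6.01 with rank 9111. The sequences hold 4 GATA motifs at the first site and 1 at the second, in capitals on the plus strand.
Sites at 31885343 and 31885524, chr13:31885274-31885547: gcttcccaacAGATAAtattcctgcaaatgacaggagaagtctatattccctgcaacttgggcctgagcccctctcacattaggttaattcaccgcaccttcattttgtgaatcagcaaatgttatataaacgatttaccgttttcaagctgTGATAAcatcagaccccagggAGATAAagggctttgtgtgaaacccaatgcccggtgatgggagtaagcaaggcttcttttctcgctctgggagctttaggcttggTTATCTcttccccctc
Site at 31889857, chr13:31889807-31889907: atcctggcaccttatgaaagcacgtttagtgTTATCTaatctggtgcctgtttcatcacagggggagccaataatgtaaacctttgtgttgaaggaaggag

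*Gmds* lies past the 3′ end of *Foxc1*, without overlap, and is read on the opposite strand. In its introns the WT list had a peak at 31918757 with a height of 11.9 and rank 1680. Another WT peak at 31994692 had a height of 28.5, an ES height of 4.14 and rank 1350. The DKO peaks 5 bp and 25 bp away had heights of 7.95 and 10.8, ES heights of 1.09 and 1.72 and ranks of 3225 and 3222. Enrichments at these sites were 9.56 and 6.88 in WT and 7.26 and 6.31 in DKO. At 31919122 a further DKO peak of height 5.18 and rank 15729 completed the 5 best-ranked of that list. In all, the *Gmds* body within 250 kb of *Foxc1* held 8 WT and 5 DKO peaks, and all 5 DKO peaks had a WT peak within 500 bp. The site at 31994692 is shown because its window held 2 CpGs and 2 GATA motifs, in capitals, close to the peak position.
Site in an intron of Gmds, chr13:31994642-31994742: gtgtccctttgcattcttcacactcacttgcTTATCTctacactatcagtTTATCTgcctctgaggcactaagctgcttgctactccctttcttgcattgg

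**Figure D2:**
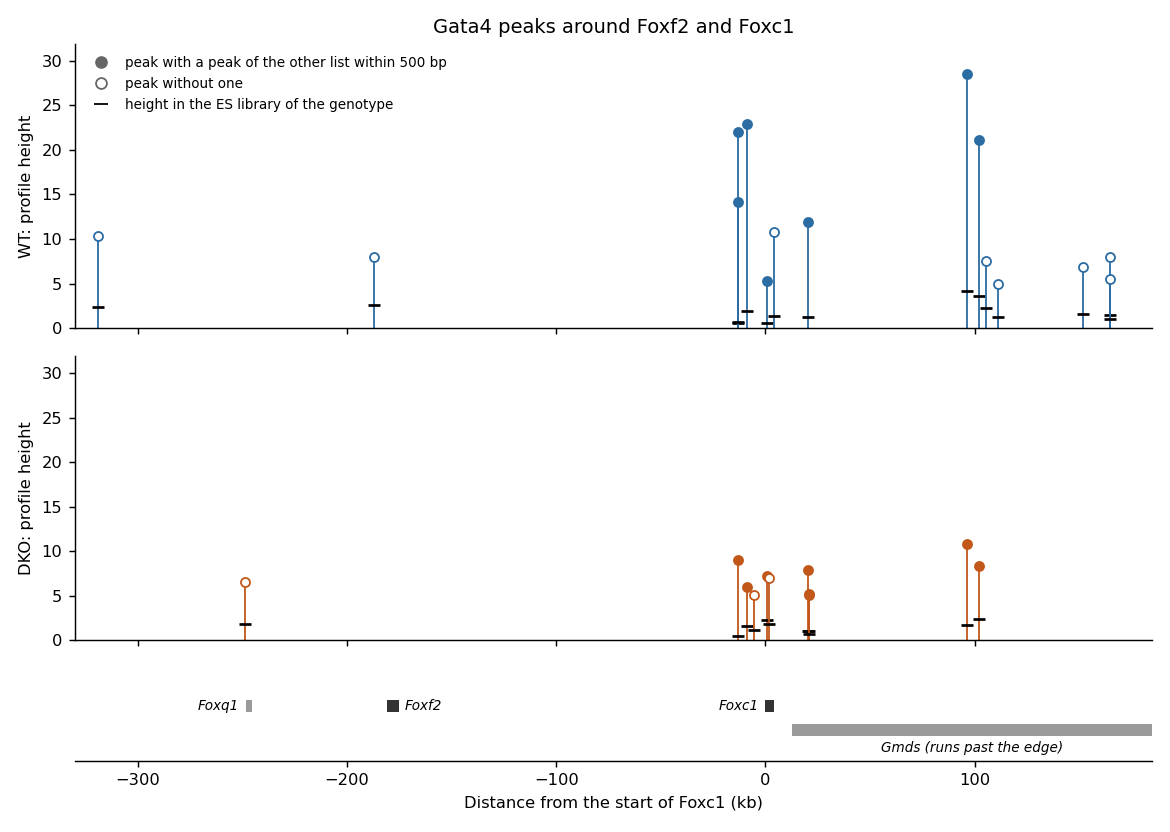
Profile heights of the 15 WT peaks (upper panel) and the 11 DKO peaks (middle panel) against the distance in kb from the start of Foxc1, with genes as bars below and symbols as in the map around Foxc2. No DKO height exceeds 10.8, while WT heights reach 28.5, and no peak of either list lies within 5 kb of Foxf2.

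Of the 47 WT peaks in the Fox regions, 25 had a DKO peak within 500 bp, which is 53.2% (95% interval 38.1% to 67.9%) beside 45.6% of the whole WT list. Of the 53 DKO peaks, 25 had a WT peak, which is 47.2% (33.3% to 61.4%) beside 45.1% of the whole DKO list. Both whole-list shares lay inside the intervals. On chromosome 8 the shares were 56.3% of 32 WT peaks and 40.5% of 42 DKO peaks, and on chromosome 13 they were 46.7% of 15 and 72.7% of 11. The 22 WT peaks without a partner had heights of 5.02 to 14.02 and a median of 7.54. The 25 with one had a median of 11.9 and a highest value of 38.0. Over the whole WT list these medians were 6.69 and 10.1. In the DKO list the medians were close, 6.405 for the 28 peaks without a partner and 6.88 for the 25 with one, and the highest values were 13.9 and 40.5. By rank, 4 of the 28 DKO peaks without a partner were in the best 10% of their list, 14.3% (4.03% to 32.7%). Of the 25 with a partner 3 were, 12% (2.55% to 31.2%). The whole DKO list gave 4.09% and 17.2% for the same division, and both values lay inside the intervals.

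Taking as a pair only peaks that were each the other's nearest, 20 pairs lay in the Fox regions, 14 on chromosome 8 and 6 on chromosome 13. How the authors scaled heights for depth is not given in the sources used here, so the DKO to WT ratio of a pair is read beside that of all 8489 pairs, whose median was 0.806 with quartiles of 0.580 and 1.03. On chromosome 8 the Fox pairs had a median ratio of 0.817 and a range of 0.289 to 1.24, and 7 of 14 were above the median of all pairs. All 599 pairs of chromosome 8 had a median of 0.724. The sites at 123840048 and 123724941 past *Foxl1* had DKO to WT ratios of 1.07 and 1.22, with 78.0% and 87.8% of all pairs lower. On chromosome 13 the Fox pairs had a median ratio of 0.402 and a range of 0.262 to 1.36, and 1 of 6 was above the median of all pairs, beside a median of 0.770 over all 342 pairs of that chromosome. The exception was the pair in the coding exon of *Foxc1*, at 1.36, and the lowest was the pair at 31889857, at 0.262, with 0.895% of all pairs lower.

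ES heights differed more than Flk1(+) heights on chromosome 8. In 13 of the 14 Fox pairs there the ES height was higher in WT, and the median DKO to WT ratio of ES heights was 0.489. Over all 599 pairs of the chromosome that median was 0.560, and over all pairs of both lists it was 0.694. On chromosome 13 it was 0.789 over the 6 Fox pairs, of which 5 had the higher ES height in WT. Enrichment is the height divided by the ES height. A site can thus have like heights in both lists and unlike enrichments, as the site at 123724941 did. Its ranks were distant too, and the part of the ES height in them was not tested.

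**Figure D3:**
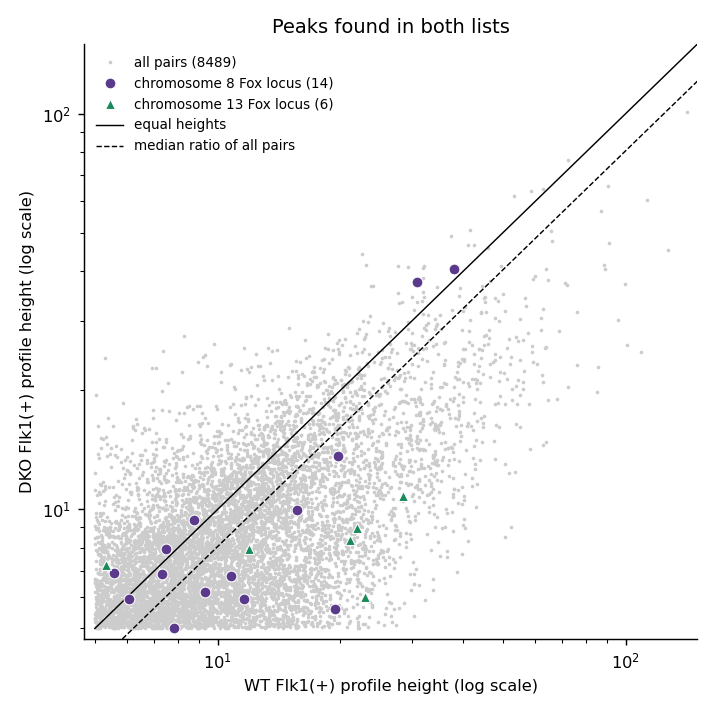
DKO against WT Flk1(+) profile height, both on log axes, for all 8489 pairs of peaks (grey), the 14 pairs around Foxc2 and Foxl1 (circles) and the 6 around Foxc1 and Foxf2 (triangles). The solid line marks equal heights and the dashed line the median ratio of all pairs, 0.806. All but 1 triangle lie below the dashed line, and the tallest circles lie above the solid line.

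The GATA motif, AGATAA or TGATAA on either strand, was in 33 of 47 WT windows, which is 70.2% (55.1% to 82.7%) beside 61.9% of the whole WT list. It was in 26 of 53 DKO windows, which is 49.1% (35.1% to 63.2%) beside 38.1% of the whole DKO list. Both whole-list shares lay inside the intervals. On chromosome 8 the motif shares were 62.5% of 32 WT and 40.5% of 42 DKO windows, near those of the whole lists. On chromosome 13 they were higher, 86.7% of 15 (59.5% to 98.3%) and 81.8% of 11 (48.2% to 97.7%). The share of the whole WT list lay inside its interval and that of the whole DKO list below its interval. Some of these chromosome 13 windows overlap and hold the same motifs, so the intervals are too narrow for separate sites. Among DKO peaks the motif was in 19 of 25 with a WT peak nearby and in 7 of 28 without one, 76.0% and 25%, and the whole DKO list gave 47.5% and 30.3% for the same division. Among WT peaks it was in 17 of 25 shared peaks and 16 of 22 others, 68.0% and 72.7%, beside 52.8% and 69.5% in the whole WT list. GTAAACA, a core that forkhead factors recognise, was in 3 WT windows and 1 DKO window, 6.38% and 1.89%, beside 7.49% and 6.03% of the whole lists.

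The median CpG content of the peaks at the genes was above that of the peaks farther away, with overlap between them. Within 5 kb of a member the median window held 46 CpGs for the 3 WT peaks and 51 for the 6 DKO peaks, with medians of 6.08 and 6.22 for height. Farther than 5 kb from every member the median window held 7.5 CpGs for 44 WT peaks and 8 for 47 DKO peaks, with median heights of 8.81 and 6.65. In the DKO list 1 of the 6 peaks near a member held the GATA motif (16.7%, interval 0.421% to 64.1%), as did 25 of the 47 farther away (53.2%, 38.1% to 67.9%). In the WT list the motif was in 2 of the 3 peaks near a member and 31 of the 44 farther away, 66.7% and 70.5%. Farther peaks reached 36 CpGs in the WT list, at 123597627 in 1110050K14Rik, and 47 in the DKO list, at 123632334 upstream of *Mthfsd*, and the WT 3′ UTR peak of *Foxc1* had 15.

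**Figure D4:**
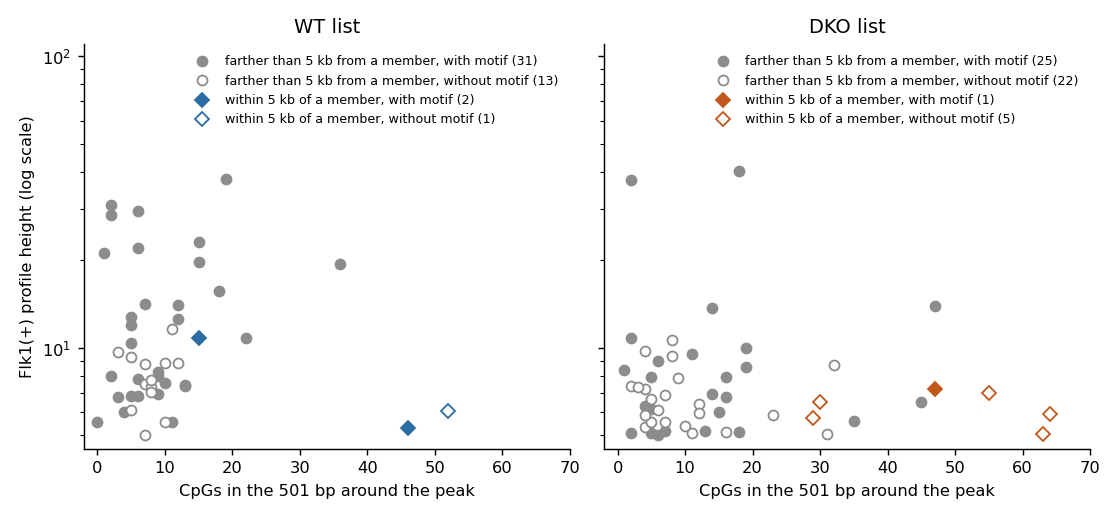
Flk1(+) profile height, on a log axis, against the number of CpGs in the window from 250 bp before to 250 bp after each peak of the Fox regions, for the WT list (left) and the DKO list (right). Diamonds are peaks within 5 kb of Foxc1, Foxc2, Foxl1 or Foxf2, circles are the others, and filled symbols hold AGATAA or TGATAA. The 6 DKO diamonds have 29 or more CpGs and heights of 7.21 or less.

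Gene lists were counted by peaks within 5 kb of the gene body, beside the 39.4% and 49.1% of protein-coding genes with a WT and a DKO peak. Of 22 genes of the paraxial mesoderm and somites, where *Foxc1* and *Foxc2* act, 12 had a WT peak and 13 a DKO peak, with 9 in both. Of all 22216 protein-coding genes 7088 had a peak in both lists. The best-ranked peaks were at *Pax3* (WT height 18.2, rank 484) and *Mesp1* (WT height 17.8, rank 515). Of 19 genes of the lateral plate and heart, 16 had a WT peak and 14 a DKO peak, led by *Tbx5* (DKO height 14.3, rank 411) and *Bmp4* (WT height 13.5, rank 1216). Of 22 endothelial and blood genes, among them partners and targets of Foxc factors, 17 had a WT peak and 20 a DKO peak, led by *Kdr*, the gene for Flk1 (WT height 39.7, rank 19), and *Flt1* (DKO height 23.5, rank 55). Of 13 Hedgehog and Bmp signalling genes, 11 had a WT peak and 9 a DKO peak, led by *Smad1* (WT height 30.4, rank 67) and *Gli3* (WT height 23.2, rank 216). Neither *Shh* nor *Gli1* had a peak within 5 kb in either list.

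Of the 40 other protein-coding Fox genes, 17 had a WT peak and 20 a DKO peak within 5 kb, which is 42.5% and 50%, and 15 had none in either list. *Foxf1a* was among 5 Fox genes with a WT peak only, and *Foxq1*, the neighbour of *Foxf2*, among 8 with a DKO peak only. Of all 22216 protein-coding genes, 1670 had a WT peak only, 3817 a DKO peak only and 9641 neither. Nothing particular to the Fox genes is read from these counts. The best-ranked peaks of these genes were at *Foxm1* (DKO height 13.9, rank 461) and *Foxo3* (DKO height 12.2, rank 716).

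Likeness to a member was measured over 76 genes of these lists as the distance between log2(1 + number of peaks within 250 kb), taken over the 2 lists together. For *Foxc2* the closest were *Hes7* (26 WT and 35 DKO peaks, distance 0.12), *Fli1* (20 and 24, distance 0.55) and *Kdr* (25 and 22, distance 0.61). For *Foxl1* they were the same genes, at distances of 0.07 for *Hes7*, 0.69 for *Kdr* and 0.70 for *Fli1*. For *Foxc1* they were *Lmo2* (13 and 10, distance 0.16), *Ptch1* (12 and 10, distance 0.24) and *Bmp4* (15 and 9, distance 0.28), and for *Foxf2* they were *Tal1* (8 and 9), *Itgb3* (8 and 8) and *Hand2* (7 and 9). These distances rest on 2 counts for each gene and describe the number of peaks only.

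The peaks next to the limits of the rule lay at unlike distances from them, from 252 bp to 593759 bp. Only some of those named here were close to a limit. Just outside the left limit of the chromosome 8 interval the WT list had a tall peak at 123384252, with a height of 30.1 and rank 586, that was shared with the DKO peak at 123384260, of height 11.0 and rank 1057. The first WT peak inside stood at 123414349, with a height of 8.89, and the DKO peak at 123398715 (height 6.30) entered through the 250 kb around *Foxc2* alone. At the right limit the last WT peak inside stood at 123985279, with a height of 9.68, and the next outside at 124126945, with a height of 28.2. Of the DKO list they stood at 123990319, with a height of 7.31, and at 124109249, with a height of 7.89. Around the chromosome 13 members the last peaks inside were the WT peak at 32063313, with a height of 5.56, and the DKO peak at 32000484 (height 8.36), and the next outside were at 32237977 (WT height 8.30) and 32261166 (DKO height 14.6). At the left limit the first inside were at 31579223 (WT height 10.3) and 31649840 (DKO height 6.52), and the next outside lay at 30873926 (WT height 7.30) and 31065968 (DKO height 9.62). Of the 5 kb limits, the nearest peaks outside were the WT peak 6066 bp from *Foxf2* and the DKO peak at 31893263 (height 5.07), 5252 bp from *Foxc1*.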

How the data were processed

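Gata4 ChIP-seq peaks of 2 lists were used, from 4 libraries with 1 for each condition. Reads were aligned to mm9 outside the laboratory, and the authors called peaks with DNAnexus tools, taking the matching ES library as control. The submitters' notes also name CASAVA 1.8.1 and cutadapt. The aligner, the handling of duplicates and the scaling for depth are not given in the sources used here. The deposited lists hold, for each peak, a signal in the Flk1(+) and ES libraries, the ratio of these as a fold enrichment, the −log10 of the q-value and a rank, which was used as the deposited score. The authors' ratio was recomputed for every peak to within 0.001. Columns carry no library name, so the genotype of a list was taken from its number of peaks and from the name under which it was deposited. The lists hold no read totals, so heights could not be rescaled for depth here, and they give no value at a place without a peak.

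Peaks were given once where several genes shared a row, and were called shared where positions lay within 500 bp. All 100 windows of the Fox regions matched mm9 at their positions. Genes came from GENCODE vM1 (a read-through model spanning the chromosome 8 interval was left out), motifs were searched on both strands, and sequences were read from mm9. Shares carry exact (Clopper-Pearson) 95% intervals. The steps were tested on simulated data. Python 3.11.15, NumPy 2.4.6, SciPy 1.17.1, pysam 0.24.0 and Matplotlib 3.10.9 were used.

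The members and the gene lists were chosen with earlier results of these data known. The text names the members, every peak within 5 kb of them, the 5 best-ranked peaks of each list in each region, the nearest peaks and those at the limits, and for each gene list those with the best-ranked peaks. The alternatives were the better-ranked part of each list, other distances, overlaps, motifs and windows.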

Additional observations from a re-analysis of the deposited data

How the results depend on the processing

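Of 28 values recomputed over the Fox regions under the alternatives, 16 stayed within the 95% interval of the share or within 1.5 times the count, and 12 moved. The counts were 47 WT and 53 DKO peaks in full, 27 and 27 in the better-ranked 50% of each list, and 17 and 24 within 100 kb of a member. The share of WT peaks with a DKO peak, 53.2% in full, was 70.6% within 100 kb and 34.0% with positions within 100 bp, and the share of DKO peaks with a WT peak, 47.2% in full, was 32.1% within 100 bp. The whole lists gave 34.7% and 31.2% at that distance. The GATA motif share of WT peaks, 70.2% in full, was 85.2% in the better-ranked 50%, 88.2% within 100 kb and 51.1% in the central 200 bp, where the whole WT list gave 71.4% in its better-ranked 50% and 52.6% in the central 200 bp. The GATA motif share of DKO peaks, 49.1% in full, was 64.2% when WGATAR was allowed and 34.0% in the central 200 bp, beside 48.9% and 28.9% in the whole DKO list. Of 40 peak counts at single members, 20 moved, as wider distances took in more peaks and the better-ranked 50% of the lists dropped the peaks at *Foxc2* in both lists and at *Foxc1* in the DKO list. With 1 library for each condition no replicate could be left out. No paired analysis was possible because no condition has a second library and the results come from no test. The heights carry no replicate error, and their scaling for depth limits every comparison between the lists.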
